A study of Homo sapiens with 6 samples.

Results

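The 57 genes described here encode proteins of the neuronal synapse, of regulated secretion and of the neuronal cytoskeleton. They were taken by name from a table of 60623 genes, and every name was found. They were picked as neuronal genes, many of which are held off outside the nervous system by complexes of the repressor REST with histone deacetylases (HDACs). The cells were TC28a2, an established line of immortalized human chondrocytes, of which 3 samples were treated with mocetinostat and 3 with DMSO, the solvent, as control. The study's methods give a dose of 2 μM and a treatment of 24 hours. Mocetinostat is an inhibitor of class I HDACs, and the comparison asks which transcripts differ after exposure to it. All samples are of this 1 line, in which no neurons are expected, and the p-values measure the spread between these samples.

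Chemical synapses release transmitter when a vesicle protein and plasma membrane proteins, the SNAREs, zip together and a calcium sensor, synaptotagmin, triggers the final fusion step. Dense-core granules use much of the same apparatus to release peptides that were sorted by granins and cut from prohormones. In non-neuronal cells REST binds a motif called repressor element 1 (RE1) near many of these genes and recruits corepressors that contain HDACs and the demethylase KDM1A.

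The DMSO libraries held 4873426 to 11031132 counts and the mocetinostat libraries 1619344 to 5089542, so equal counts in both conditions stand for a higher level with mocetinostat. Levels are given as CPM, counts scaled to a common library size, after trimmed-mean (TMM) normalization, and edgeR's quasi-likelihood test was run on the 13966 genes that passed its low-count filter. A gene is called upregulated or downregulated at a Benjamini-Hochberg adjusted p under 0.05 with a log2 fold change beyond 1 in size. The chondrocyte regulator SOX9 stood at 106 ± 13.6 CPM with DMSO and 180 ± 14.4 CPM with mocetinostat (SD, n = 3), whereas the cartilage collagen COL2A1 was at 2.20 ± 0.683 and 28.7 ± 7.54 CPM and the cartilage marker CNMD had no count in any sample. Of 17 chondrocyte markers 10 were tested, of which 6 were called upregulated and none downregulated. Among all genes tested the shares were 20.2% and 8.18%. Without the low-count filter 7 of the 17 were called upregulated, against 15.0% of protein-coding genes with a count. Summed over the list, the markers ranged from 128 to 149 CPM with DMSO and from 274 to 317 CPM with mocetinostat. GAPDH, the scaling gene of an alternative below, stood at 3039 ± 89.8 and 2111 ± 76.3 CPM.

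RE1 matches are shown first, because RE1 is the element by which REST is known to reach genes of this kind. RefSeq promoter windows (GRCh38.p14) were at hand for 37 of the 57 members, and the genome around each of these gene starts was searched for an RE1 motif spelled as a left arm TTCAGCACC, 3 free letters and a right arm GACAGCGCC, on both strands. Within 5 kb of the start, 9 members held a match with 2 or fewer mismatches in the 18 letters, against 0.802% of 15843 protein-coding genes with such a window. Capitals mark letters that fit the motif, lower case marks the free letters and the mismatches, and each is printed on the strand that reads the motif.
CHGA: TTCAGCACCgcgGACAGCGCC
SYN1: TTCAGCACCgcgGACAGtGCC
VGF: TTCAGCACgctgGACAGCGCC
SYT5: aTCAGCACCcggGACAGCGCC
INA: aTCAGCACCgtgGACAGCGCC
SYP: TcCAGCACCgtgGACAGaGCC
NPTX2: TTCAGCACCgagGACAGttCC
L1CAM: TTCAGCACCaggGACAGCGaa
CELF3: TcCAGCACCgggGACAGCtCC

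The exact match lay in an intron of CHGA (chr14:92923523-92923543), 383 bases after the gene start, and only 0.0568% of the genes searched had an exact match. The SYN1 match (chrX:47620070-47620090) lay upstream of the gene. The VGF match (chr7:101165559-101165579) sat across the gene start, and that of SYT5 (chr19:55180200-55180220) was in the untranslated part of exon 1. Those of INA (chr10:103279008-103279028), SYP (chrX:49200122-49200142) and L1CAM (chrX:153875502-153875522) were intronic. NPTX2 (chr7:98613798-98613818) and CELF3 (chr1:151717100-151717120) held theirs upstream. With 3 mismatches allowed, SYT4 and BEX1 were added, against 2.59% of all genes. Members were in part picked as REST targets, so these shares are a description, and a match in letters shows no binding.

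In the promoter windows themselves, from 250 bases before to 50 after the start, only SYN1 and VGF of the 37 held an RE1 match with up to 3 mismatches (0.196% of all windows). The same windows were searched for the cyclic AMP response element TGACGTCA, which reads the same on both strands and was found in SYN1, VGF, CHGA and DLG4 (3.00% of all windows). The SYN1 and VGF promoters carry both motifs and are printed on the gene's strand with the letters that fit either motif in capitals, up to the gene start (SYN1, chrX:47619858-47620107) or to the end of the match that crosses it (VGF, chr7:101165559-101165819). In VGF the RE1 letters read on the opposite strand, so they appear here as their reverse complement.
SYN1: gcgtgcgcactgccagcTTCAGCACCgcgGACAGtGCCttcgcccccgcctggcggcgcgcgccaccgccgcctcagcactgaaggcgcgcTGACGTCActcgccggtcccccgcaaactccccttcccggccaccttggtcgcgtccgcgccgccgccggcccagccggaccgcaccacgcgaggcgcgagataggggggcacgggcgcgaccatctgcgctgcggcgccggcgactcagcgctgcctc
VGF: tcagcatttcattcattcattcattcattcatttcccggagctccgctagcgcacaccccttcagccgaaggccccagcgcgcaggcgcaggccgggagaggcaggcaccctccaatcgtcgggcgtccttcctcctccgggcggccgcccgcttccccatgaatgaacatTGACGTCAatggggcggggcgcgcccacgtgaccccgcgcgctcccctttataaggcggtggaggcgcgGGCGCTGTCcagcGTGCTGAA

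Across the 57 members, 38 were called upregulated with mocetinostat and none was called downregulated. Among all genes tested, 20.2% were called upregulated and 8.18% downregulated. The 9 members that were tested and not called were VAMP1, VAMP2, SV2A, RAB3B, DLG4, HOMER1, L1CAM, UCHL1 and BEX1. Too few counts for the test were found for 10, namely SYT4, SYN2, SV2B, CPLX2, CHGA, STMN2, ELAVL4, CELF3, CELF4 and NLGN1. A low gene enters the test mainly when it is high in 1 condition, so the test was repeated without the filter, where 41 of the 57 were called upregulated against 15.0% of protein-coding genes with a count. Members chosen by their DMSO level alone give a further view, and of the 19 with at least 50 counts in every DMSO sample, 10 were called upregulated, against 7.22% of such genes. In CPM, 41 of the members tested were higher in every mocetinostat sample than in any DMSO sample (33.7% of all genes tested). Lower in every one were 2 (32.8%). These counts cover only genes that passed the filter, some of them through their mocetinostat level alone, and were not repeated without it. Summed over all members, the level went from 945–999 CPM in the DMSO samples to 2955–3027 CPM in the mocetinostat samples, and these ranges did not overlap. In bulk samples a change in the RNA per cell and a change in the number of cells that express a gene cannot be told apart.

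**Figure D1:**
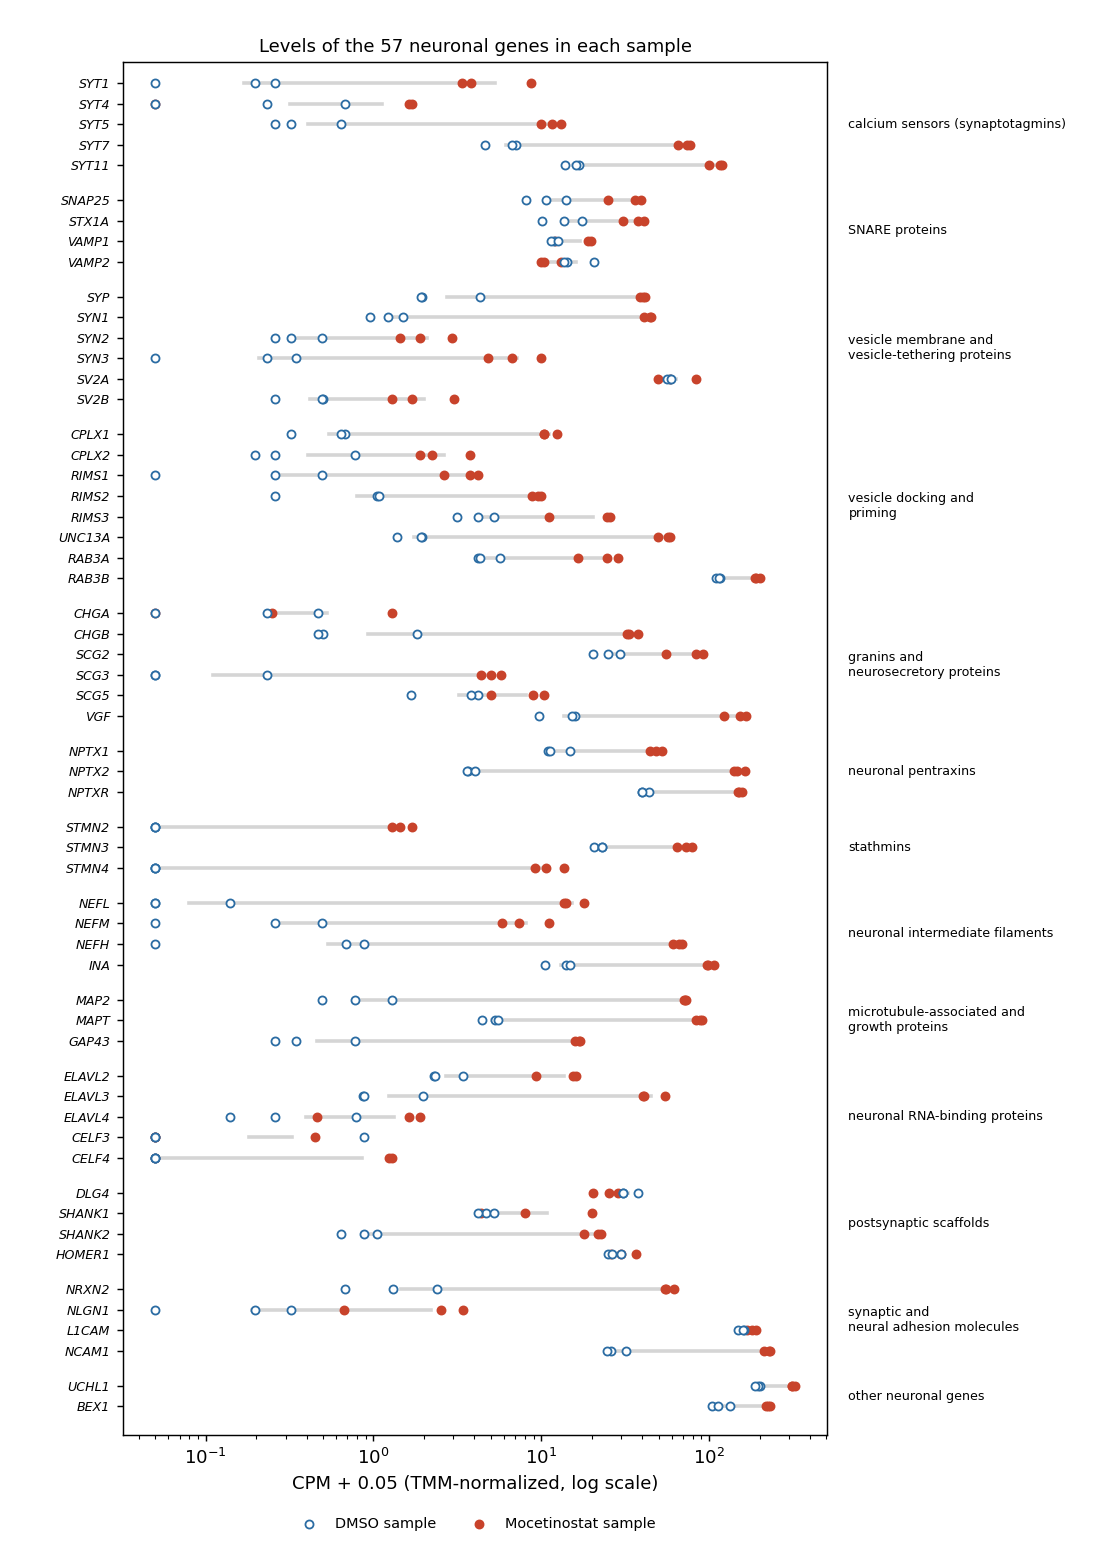
Level of each of the 57 members in each of the 6 samples, as CPM plus 0.05 on a log axis, with members grouped by role. Open blue points are DMSO samples, filled red points are mocetinostat samples and grey bars join the condition means. For 41 tested members all red points lie to the right of the blue points, while SV2A, HOMER1, VAMP1 and SHANK1 overlap.

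Silence in DMSO was set at 3 counts or fewer in every DMSO sample, and 13 of the 57 members (22.8%) met it: SYT1, SYT4, SYN2, SYN3, RIMS1, CHGA, SCG3, STMN2, STMN4, NEFL, NEFM, CELF4 and NLGN1. By the same count 30.0% of protein-coding genes were silent, so most members had a measurable transcript in DMSO. Of the 13, 7 rose above 3 counts in every mocetinostat sample (SYT1, SYN3, RIMS1, SCG3, STMN4, NEFL and NEFM), against 5.64% of silent protein-coding genes. STMN2, STMN4 and CELF4 had no count at all in DMSO. Silence depends on depth: with every library reduced at random to the smallest total, 27 members met the definition. Of those, 17 were detected in every mocetinostat sample. The matching shares of protein-coding genes were not computed, so these counts show the effect of depth and are no result about the members.

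**Figure D2:**
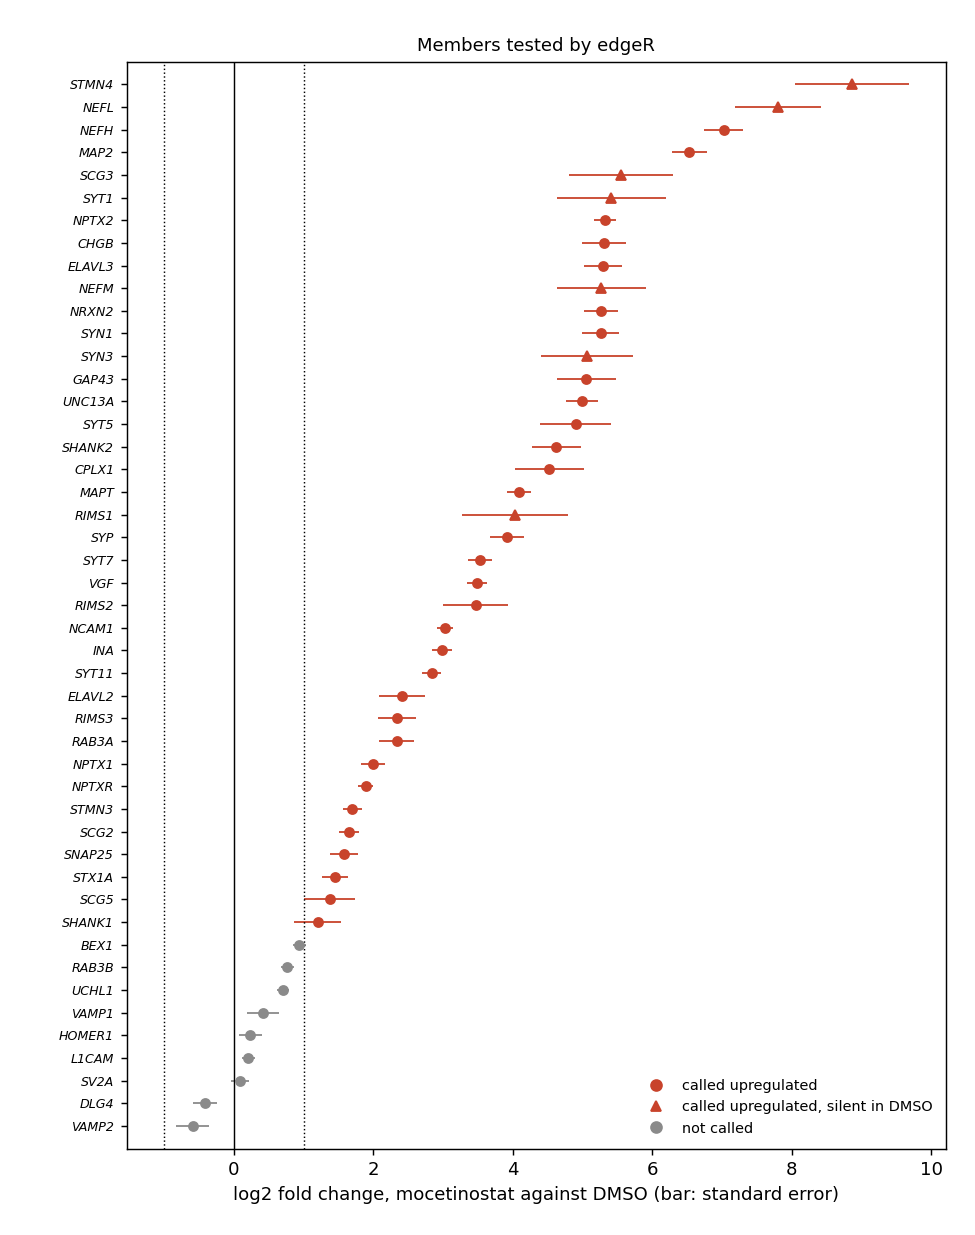
Log2 fold change of mocetinostat against DMSO with its standard error for the 47 members tested, in order of size. Red marks members called upregulated, grey those not called, and triangles those silent in DMSO. Fitted values run from −0.59 for VAMP2 to 8.86 for STMN4, whose value depends on the prior count because it had no DMSO count, and the dotted lines stand at a log2 fold change of 1 in either direction.

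Among the calcium sensors, 4 of 5 synaptotagmins were called upregulated and SYT4 was too low to test. SYT7, a slow, high-affinity sensor that also serves exocytosis of lysosomes outside neurons, had 78, 32 and 31 counts in the DMSO samples and 331, 119 and 185 with mocetinostat. Its mean level moved from 6.10 ± 1.34 to 72.0 ± 5.73 CPM (SD, n = 3). The log2 fold change was 3.53 ± 0.18 (SE, edgeR adjusted p = 8.71e-29). SYT11, which lacks calcium binding and acts in membrane traffic, had 185, 66 and 109 counts against 601, 161 and 280, and its log2 fold change was 2.84 ± 0.14. For both genes the conditions did not overlap in CPM. SYT5, a vesicle sensor also known as a dense-core granule protein, had 3, 1 and 4 counts against 50, 21 and 28 (log2 fold change 4.90 ± 0.51). SYT1, the fast sensor of transmitter release, had 0, 1 and 1 counts against 19, 14 and 8, and the ratio of its pooled levels was 51.2 with an exact 95% counting interval of 13.3 to 437. Its fitted log2 fold change of 5.41 was 4.57 without DMSO replicate 1. SYT4 had 2, 3 and 0 counts against 8, 0 and 4, so its conditions overlapped. SYT1 and SYT5 thus appeared from near silence, while SYT7 and SYT11 rose from a measurable DMSO level.

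Among the SNARE proteins, both plasma membrane partners rose and neither vesicle partner was called. SNAP25, which gives the fusion bundle a pair of helices, had 155, 51 and 55 counts in DMSO and 183, 63 and 60 with mocetinostat, or 10.9 ± 2.97 and 33.4 ± 7.52 CPM. STX1A, the plasma membrane syntaxin, had 111, 84 and 93 counts against 191, 66 and 74. The log2 fold changes were 1.58 ± 0.20 for SNAP25 and 1.45 ± 0.19 for STX1A (edgeR adjusted p = 1.95e-10 and 4.88e-10). The nearly equal counts hide the change because of the lower depth of the mocetinostat libraries. VAMP1, a vesicle SNARE, had 132, 55 and 85 counts against 61, 32 and 46, with overlapping conditions and a log2 fold change of 0.43 ± 0.23 (edgeR adjusted p = 0.101). VAMP2, the main vesicle SNARE of brain synapses, had 158, 65 and 140 counts against 50, 21 and 25. Its conditions did not overlap, and the log2 fold change of −0.59 ± 0.24 was short of the fold threshold (edgeR adjusted p = 0.0254), at −0.05 when scaled to GAPDH.

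Of 6 vesicle membrane and tethering proteins, 3 were called upregulated. SYP, or synaptophysin, the classical vesicle marker, had 21, 9 and 29 counts in DMSO against 204, 67 and 93. SYN1, which tethers vesicles to actin in the reserve pool, had 10, 7 and 8 counts against 224, 73 and 99, from 1.18 ± 0.276 to 43.6 ± 2.23 CPM. Of the SYN1 exon length, 24.9% is shared with another annotated gene on the same strand. SYN3, a synapsin of developing neurons, had 2, 0 and 2 counts against 24, 16 and 16. None of these overlapped between conditions, and their log2 fold changes were 3.91 ± 0.24, 5.26 ± 0.27 and 5.06 ± 0.65 (edgeR adjusted p = 1.17e-23, 1.17e-28 and 2.84e-10). SV2A, a vesicle glycoprotein and the target of the drug levetiracetam, was already abundant, with 649, 271 and 404 counts against 296, 134 and 119. At 58.2 ± 1.61 and 63.7 ± 17.4 CPM its conditions overlapped (log2 fold change 0.09 ± 0.13, edgeR adjusted p = 0.567), and its sign turned to −0.16 without the expression filter and to −0.11 without mocetinostat replicate 2. Too low to test were SYN2, at 3, 1 and 3 counts against 7, 3 and 7, and SV2B, at 5, 1 and 3 against 15, 2 and 4. The vesicle genes thus ranged from near silence to the level of SV2A, which was abundant in both conditions.

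Vesicle docking and priming genes were called upregulated in 6 of 8 cases. UNC13A, which primes vesicles by opening syntaxin, had 21, 9 and 9 counts in DMSO against 289, 80 and 141, or 1.70 ± 0.324 and 55.1 ± 4.82 CPM. Its log2 fold change of 5.0 ± 0.23 (edgeR adjusted p = 7.13e-31) was the highest of the group. CPLX1, a complexin that clamps the SNARE bundle, had 3, 3 and 4 counts against 52, 20 and 25 (4.52 ± 0.49 on the log2 scale). The RIM active-zone proteins rose together: RIMS1 had 0, 1 and 3 counts against 13, 6 and 10, RIMS2 had 11, 1 and 7 against 44, 16 and 23, and RIMS3 had 57, 20 and 21 against 129, 18 and 59. Their log2 fold changes were 4.03 ± 0.76, 3.47 ± 0.47 and 2.34 ± 0.27, and that of RIMS1 was 3.16 without DMSO replicate 1 and 5.20 without DMSO replicate 3. RAB3A, the vesicle GTPase that RIM proteins bind, had 46, 27 and 29 counts against 125, 46 and 40 (2.33 ± 0.26 on the log2 scale). For these 6 genes the conditions did not overlap, and the largest edgeR adjusted p was 3.93e-06, that of RIMS1. RAB3B, a relative of RAB3A that is also used in epithelial and endocrine cells, had 1285, 528 and 781 counts against 1012, 308 and 455. It went from 114 ± 3.35 to 193 ± 6.40 CPM without overlap, and its log2 fold change of 0.77 ± 0.09 was short of the fold threshold (edgeR adjusted p = 2.89e-11). CPLX2, a second complexin, was too low to test, at 8, 1 and 1 counts against 11, 3 and 9.

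Granins and neurosecretory proteins load and form dense-core granules, and 5 of 6 were called upregulated. VGF, the precursor of several secreted peptides, had 106, 76 and 103 counts in DMSO against 769, 267 and 296, from 13.5 ± 3.43 to 147 ± 21.9 CPM (log2 fold change 3.49 ± 0.14, edgeR adjusted p = 7.37e-34). CHGB, or chromogranin B, had 5, 2 and 12 counts against 164, 54 and 91, from 0.879 ± 0.770 to 34.6 ± 2.77 CPM. SCG2, or secretogranin II, had 276, 98 and 201 counts against 462, 89 and 201. Their log2 fold changes were 5.31 ± 0.31 and 1.65 ± 0.14, and that of CHGB was 6.18 without DMSO replicate 3. None of these genes overlapped between conditions. SCG3, which links granins to the granule membrane, had 2, 0 and 0 counts against 29, 7 and 12, and the ratio of its pooled levels was 59.9 with an exact 95% counting interval of 15.7 to 509. All of its DMSO counts were in replicate 1, without which its fitted log2 fold change went from 5.55 to 7.41. SCG5, the 7B2 chaperone of the convertase PCSK2, had 46, 18 and 11 counts against 45, 8 and 25. Its log2 fold change of 1.37 ± 0.37 (edgeR adjusted p = 0.000825) was not called when the test required a change beyond the fold threshold (adjusted p = 0.239), and 51.4% of its exon length is shared with another annotated gene on the same strand. CHGA, or chromogranin A, stood apart with 2, 2 and 0 counts against 1, 2 and 0, so that the member with the exact RE1 match stayed at or below 2 counts in every sample.

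All 3 neuronal pentraxins, secreted or membrane-bound proteins that cluster glutamate receptors, were called upregulated. NPTX2, an immediate early gene of active neurons on chromosome 7 (98617285 to 98629869, plus strand), had 40, 17 and 27 counts in DMSO against 715, 264 and 354. It went from 3.71 ± 0.234 to 151 ± 11.5 CPM, and its log2 fold change of 5.33 ± 0.16 had the lowest adjusted p of all members (edgeR adjusted p = 2.77e-42). NPTXR, the membrane-anchored partner, had 442, 211 and 272 counts against 751, 245 and 380, from 41.3 ± 2.25 to 153 ± 4.37 CPM. NPTX1 had 120, 54 and 101 counts against 265, 72 and 117, from 12.3 ± 2.22 to 48.5 ± 3.96 CPM. The conditions did not overlap for any of the 3, and the log2 fold changes of NPTXR and NPTX1 were 1.89 ± 0.11 and 2.00 ± 0.17. NPTX2 thus had the largest fold change of a group whose members were all measurable in DMSO.

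Stathmins bind tubulin dimers, and the neuronal ones are membrane-anchored in growth cones. STMN4 had no count in DMSO and 54, 22 and 22 counts with mocetinostat, which is at least 81.5-fold higher when the DMSO group is set to a floor of 3 counts over its libraries. STMN2 also had no count in DMSO and had 7, 2 and 4 with mocetinostat, at least 10.8-fold higher by the same floor, and it was too low to test. STMN3 was expressed in both conditions, with 229, 111 and 155 counts against 366, 128 and 156 (log2 fold change 1.70 ± 0.14, edgeR adjusted p = 6.32e-18). Its CPM did not overlap between conditions.

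The neuronal intermediate filament genes, whose products set the calibre of axons, were all called upregulated. NEFL, the light neurofilament subunit, had 1, 0 and 0 counts in DMSO against 71, 29 and 33, and the ratio of its pooled levels was 332 with an exact 95% counting interval of 58.6 to 13210. Its fitted log2 fold change of 7.80 was 8.94 without DMSO replicate 1. NEFM, the medium subunit, had 0, 1 and 3 counts against 37, 18 and 14 (log2 fold change 5.26 ± 0.64, but 4.38 without DMSO replicate 1 and 6.43 without DMSO replicate 3). NEFH, the heavy subunit on chromosome 22, had 7, 4 and 0 counts against 350, 98 and 160. It went from 0.489 ± 0.435 to 65.5 ± 4.39 CPM, a log2 fold change of 7.02 ± 0.28 (edgeR adjusted p = 1.81e-34). INA, or alpha-internexin, had a level in DMSO already, with 116, 67 and 101 counts against 538, 160 and 234, and went from 13.1 ± 2.31 to 101 ± 5.08 CPM (log2 fold change 2.98 ± 0.14). None of the 4 overlapped between conditions. The strand setting of the counting is not given in the sources used here, and 26.4% of the exon length of NEFM, 19.8% of NEFL, 13.9% of INA and 9.04% of NEFH lies opposite another gene's exons, so that part of their reads could come from the other strand. Outside this group the same holds for 10.4% of VAMP1 and 9.24% of RAB3A, and 11.9% of VAMP2 is shared with a gene on the same strand.

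Microtubule-associated and growth proteins rose in all 3 cases. MAP2, which stabilizes dendritic microtubules, had 8, 6 and 3 counts in DMSO against 359, 117 and 174. It went from 0.805 ± 0.410 to 71.9 ± 0.685 CPM, and its log2 fold change of 6.53 ± 0.25 had an edgeR adjusted p of 4.83e-36. MAPT, or tau, the axonal counterpart, had 58, 21 and 37 counts against 423, 142 and 218, from 5.02 ± 0.573 to 87.4 ± 3.28 CPM. The summed level of this group was 5.83 to 6.69 CPM in DMSO and 172 to 178 CPM with mocetinostat. GAP43, a growth cone protein, had 8, 1 and 2 counts against 86, 27 and 38, from 0.409 ± 0.276 to 16.5 ± 0.678 CPM. On the log2 scale MAPT and GAP43 were 4.09 ± 0.17 and 5.05 ± 0.42 higher, and GAP43 was 5.82 higher without DMSO replicate 1. No gene of this group overlapped between conditions.

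Of the 5 neuronal RNA-binding proteins, ELAVL2 and ELAVL3 were called upregulated and the others were too low to test. ELAVL3, a HuC protein that stabilizes neuronal messages, had 9, 4 and 13 counts in DMSO against 275, 65 and 99, from 1.19 ± 0.631 to 45.3 ± 8.01 CPM (log2 fold change 5.29 ± 0.27, edgeR adjusted p = 1.21e-28). ELAVL2, or HuB, had 25, 11 and 23 counts against 81, 15 and 37 (log2 fold change 2.41 ± 0.33, edgeR adjusted p = 1.35e-09). Both were free of overlap between conditions. ELAVL4, or HuD, had 1, 1 and 5 counts against 8, 3 and 1. CELF3 had 0, 4 and 0 against 2, 0 and 0, and CELF4 had 0, 0 and 0 against 6, 2 and 0. CELF3 and CELF4, which regulate neuronal splicing and translation, were thus near the limit of detection in both conditions. CELF3 is a member with an RE1 match.

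Postsynaptic scaffolds were split, with 2 of 4 called. SHANK2, which links glutamate receptors to actin, had 11, 4 and 4 counts in DMSO against 110, 29 and 55, from 0.806 ± 0.204 to 20.9 ± 2.55 CPM (log2 fold change 4.62 ± 0.35, edgeR adjusted p = 2.58e-19). SHANK1 had 51, 20 and 35 counts against 40, 7 and 48, and its mocetinostat samples spread to 10.7 ± 8.14 CPM and overlapped with DMSO. Its log2 fold change of 1.20 ± 0.34 (edgeR adjusted p = 0.00140) rested on mocetinostat replicate 3, without which it was 0.51 (adjusted p = 0.274). It was also below the fold threshold, at 0.95, without the expression filter. DLG4, or PSD-95, had 338, 180 and 209 counts against 128, 46 and 49, from 33.0 ± 3.92 to 24.7 ± 4.14 CPM without overlap. At a log2 fold change of −0.41 ± 0.17 (edgeR adjusted p = 0.0281) it did not reach the fold threshold, and scaled to GAPDH it was 0.12. HOMER1, an adaptor of metabotropic glutamate receptors, had 275, 126 and 203 counts against 184, 42 and 72 with overlap, and its log2 fold change of 0.24 ± 0.17 (edgeR adjusted p = 0.204) was −0.01 without the expression filter.

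Of the 4 adhesion molecules, NCAM1 and NRXN2 were called upregulated. NCAM1, a neural cell adhesion molecule on chromosome 11 (112961275 to 113278436, plus strand), had 289, 154 and 166 counts in DMSO against 1067, 373 and 548. It rose from 27.6 ± 4.0 to 223 ± 10.4 CPM (log2 fold change 3.03 ± 0.11, edgeR adjusted p = 1e-36). NRXN2, a presynaptic neurexin, had 14, 3 and 16 counts against 274, 100 and 134, from 1.42 ± 0.876 to 57.3 ± 4.11 CPM (log2 fold change 5.26 ± 0.24). Neither gene overlapped between conditions. NLGN1, a postsynaptic partner of neurexins, had 3, 0 and 1 counts against 17, 1 and 6 and was too low to test. L1CAM, an adhesion molecule of growing axons, was high in both conditions, with 1647, 775 and 1076 counts against 912, 273 and 458. It went from 156 ± 6.50 to 180 ± 10.3 CPM, and its log2 fold change of 0.21 ± 0.09 (edgeR adjusted p = 0.0381) was −0.04 without the expression filter.

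UCHL1 and BEX1, neuronal genes that many cultured cell lines also express, were the most abundant members per length. UCHL1, a ubiquitin hydrolase, had the most counts of all, 2219, 937 and 1270 in DMSO and 1570, 527 and 758 with mocetinostat, or 194 ± 6.82 and 317 ± 8.15 CPM. BEX1, a small adaptor protein, had 1150, 546 and 910 counts against 1160, 362 and 526, or 117 ± 15.4 and 224 ± 5.99 CPM. Conditions did not overlap for either, and both fell short of the fold threshold, at log2 fold changes of 0.70 ± 0.08 and 0.94 ± 0.09 (edgeR adjusted p = 8.66e-12 and 3.17e-14). For BEX1 the value was 1.02 without DMSO replicate 3 and with a filter of at least 10 counts in every sample, which would be called.

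Levels can be compared between members only per length, here as CPM per kilobase of exon. The length was the union of all annotated exons of a gene. It can exceed the length of a single transcript, so the order is approximate. In DMSO the order began with BEX1 at 148, UCHL1 at 88.1 and L1CAM at 21.5 CPM per kb. With mocetinostat BEX1 at 282 and UCHL1 at 144 CPM per kb still led, followed by VGF at 54.8, NPTX2 at 49.7 and INA at 31.0 CPM per kb. NPTX2 had been at rank 21 of the members in DMSO, at 1.23 CPM per kb. The 3 most abundant members in DMSO were thus not among those called upregulated.

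Many neuronal members have a paralog that most cells express, and 30 such paralogs were set beside them. Of these, 29 were tested, 4 were called upregulated (SNAP29, SYNGR2, RAB3D and BEX4) and none downregulated. Their median log2 fold change was −0.03, against 3.47 for the members tested (also with STMN4 at its lower bound) and −0.00 for all genes tested. The medians are not matched for level. No paralog was silent in DMSO, whereas 7 of the members tested were, and these passed the low-count filter through their mocetinostat counts. So did further members with fewer than 10 counts in every DMSO sample, among them CPLX1, MAP2 and NEFH. The median of the members thus rests in part on genes that the filter kept for their mocetinostat level. SNAP23, the general relative of SNAP25, was at 73.5 ± 2.82 and 69.4 ± 1.06 CPM. STMN1, the cytosolic stathmin, was at 276 ± 8.27 and 196 ± 3.39 CPM. ELAVL1, or HuR, was at 182 ± 6.59 and 125 ± 9.43 CPM, and MAP4, the general microtubule protein, was at 493 ± 20.3 and 515 ± 7.32 CPM. Their log2 fold changes were −0.08, −0.49, −0.54 and 0.06, and when scaled to GAPDH they were 0.45, 0.04, −0.01 and 0.59. VIM, the filament protein of mesenchymal cells, was 0.86 higher on the log2 scale and was not called, against 2.98 for INA and 7.02 for NEFH. RAB3D and BEX4, with log2 fold changes of 3.90 and 2.63, stood above their neuronal relatives RAB3A, RAB3B and BEX1. The difference between a member and its paralog was not tested.

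**Figure D3:**
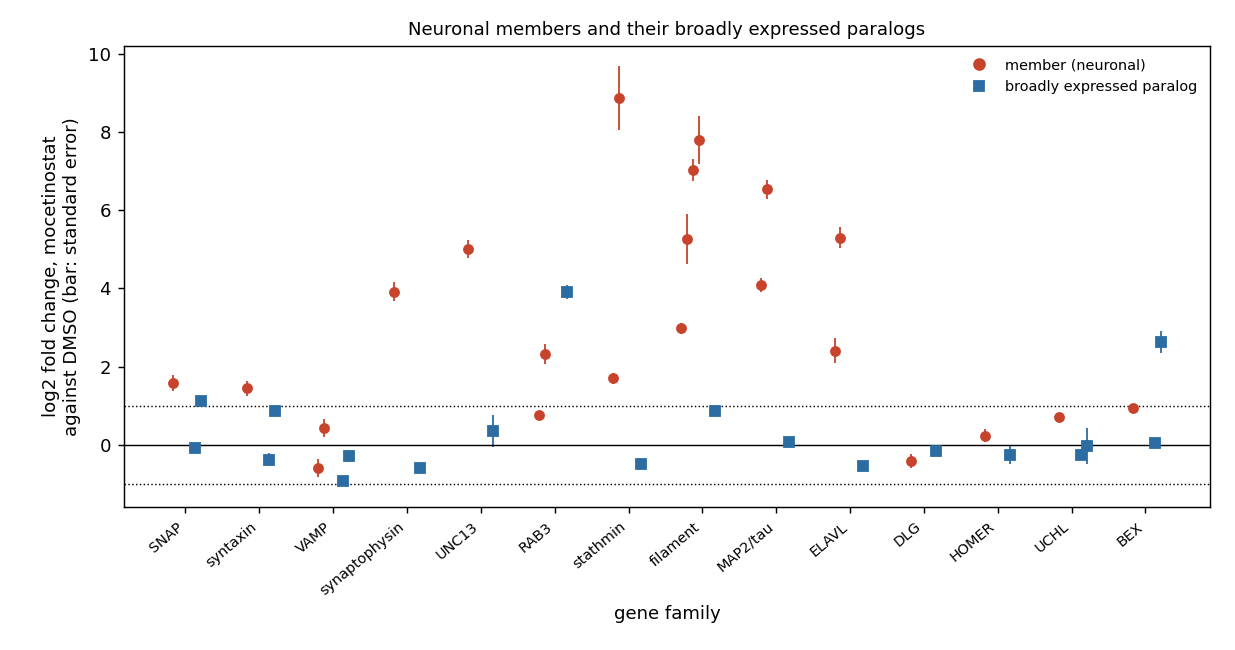
Log2 fold change of mocetinostat against DMSO with its standard error, by gene family, for tested members (red circles) and their broadly expressed paralogs (blue squares). Dotted lines mark a log2 fold change of 1 in either direction. Of the paralogs drawn, RAB3D at 3.90, BEX4 at 2.63 and SNAP29 at 1.13 lie above the threshold and the others between the dotted lines, while the neuronal VAMP, DLG and HOMER genes also lie within 1 of 0.

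Other genes of the same pathways were read from lists. Of 55 further exocytosis genes, 28 of the 37 tested were called upregulated and none downregulated, and the median change was 1.97 on the log2 scale. Among all genes tested, 20.2% were called upregulated. Named by the size of the fitted change, the first 4 were the synaptotagmins SYT9 and SYT13 and the active-zone genes RIMS4 and ERC2, most of them nearly without DMSO counts. SYT9 had none, and its mocetinostat level was at least 43.3-fold higher by the floor of 3 counts over the group. The ratios of pooled levels were 88.6 for SYT13 (exact 95% counting interval 23.6 to 746) and 72.4 for ERC2 (24 to 358), and the log2 fold change of RIMS4 was 6.11 ± 0.21. Prohormone processing genes and peptides were called upregulated in 7 of 12 tested cases out of 23, among them the neuropeptides ADCYAP1 and CCK and the convertases PCSK5 and PCSK1. The ratios of pooled levels were 77.4 for ADCYAP1 (20.5 to 653) and 89.9 for CCK (15.1 to 3647), beside fitted log2 changes of 6.00 (5.15 without DMSO replicate 1 and 8.16 without DMSO replicate 3) and 5.85 (6.99 without DMSO replicate 1). PCSK1 was 2.43 higher on the log2 scale, and PCSK5, whose DMSO counts all lay in replicate 3, was 5.27 higher, or 4.36 without DMSO replicate 1 and 9.19 without DMSO replicate 3. The other 18 exocytosis and 11 prohormone genes had too few counts for the test. Over the 12 tested prohormone genes the median change was 1.76 on the log2 scale. Both medians cover only genes that passed the low-count filter, some of them silent in DMSO. Without the filter, 34 of the 55 exocytosis genes and 9 of the 23 prohormone genes were called upregulated, against 15.0% of protein-coding genes with a count.

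Genes that define a neuron were mostly too low to test. Of 20 neuron-defining genes 5 were tested, and all 5 were called upregulated (GAD1 at 4.41, or 5.56 without DMSO replicate 1, with KCNC1, GRIN2A, CAMK2A and TUBB3), while 11 were silent in DMSO and none of these was detected in every mocetinostat sample. Summed, this list was at 7.37 to 10.2 CPM in DMSO and 57.5 to 63.2 CPM with mocetinostat. Of 17 proneural transcription factors, 3 were tested and called upregulated (POU3F2 at 5.41, MYT1 at 1.99 and PAX6 at 1.38), and of the 13 silent ones 1 was detected in every mocetinostat sample. Their sum was 8.23 to 12.5 CPM in DMSO and 43.9 to 50.6 CPM with mocetinostat. Of 10 glial markers, OLIG2, with no DMSO count and at least 33.3-fold higher by the same floor, and MBP (1.30 on the log2 scale) were tested and called, with list sums of 7.96 to 12.1 and 28.9 to 31.6 CPM. A low gene enters the test mainly when it is high in 1 condition, so calls among the few genes tested here carry little weight. Without the filter, 9 of the 20 neuron-defining genes, 4 of the 17 proneural factors and 3 of the 10 glial markers were called upregulated. Of protein-coding genes with a count, 15.0% were. The summed levels of these 3 lists were higher with mocetinostat, as that of the members was, while most of their genes were too low to test. The part of any such cells in the results on the members was not tested.

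REST itself went from 112 ± 5.55 to 77.5 ± 5.69 CPM, a log2 fold change of −0.52 ± 0.11 (edgeR adjusted p = 2.59e-05) that did not reach the fold threshold and was 0.01 when scaled to GAPDH. Of 21 genes for REST and its corepressors, 20 were tested, 2 were called upregulated (RCOR2 and SRRM3, at 2.14 and 2.01) and none downregulated. RCOR1, the main CoREST scaffold, was at 53.9 ± 5.70 and 53.5 ± 5.0 CPM. KDM1A, HDAC1 and HDAC2 had log2 fold changes of 0.25, 0.24 and 0.13, none past the fold threshold. The median over this list was −0.06.

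Set against the RE1 matches, 6 of the 9 members with a match of 2 or fewer mismatches were called upregulated (SYT5, SYP, SYN1, VGF, NPTX2 and INA), L1CAM was tested and not called, and CHGA and CELF3 were too low to test. Of the 28 other members with a window, 13 of the 21 tested were called upregulated. The remaining 20 members had no window and were not searched for such a match. All of them except STMN2, which was too low to test, were called upregulated, and the split by match leaves them out. Outside the members, 118 protein-coding genes had such a match near their start, 57 of them were tested and 29 (50.9%) were called upregulated, against 20.2% of all genes tested. This is a description, with no test of the share. With 3 mismatches allowed the share was 34.2% of 222 tested genes. A low gene enters the test mainly when it is high in 1 condition, which can raise both shares, and shares without the filter were not computed. Members with a match differed in level: SYN1, with 1 mismatch, rose from 1.18 to 43.6 CPM. CHGA, with none, was at 0.199 ± 0.209 and 0.479 ± 0.666 CPM, too few counts to tell whether it changed.

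**Figure D4:**
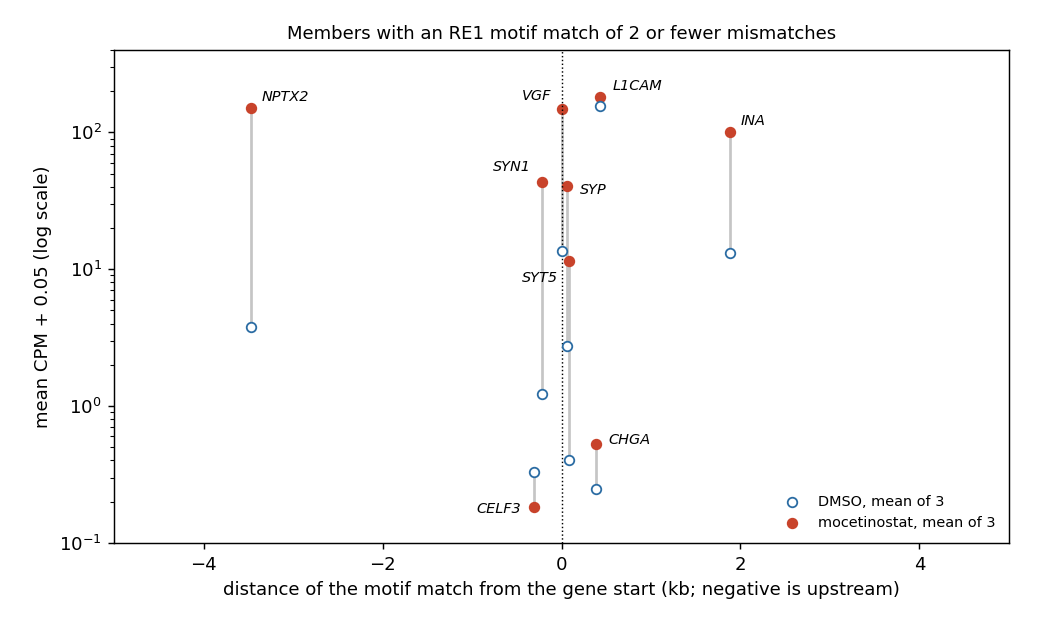
Mean level of the 9 members with an RE1 match of 2 or fewer mismatches, as CPM plus 0.05 on a log axis, against the distance of the match from the gene start in kb. Open blue points are the mean of 3 DMSO samples and filled red points the mean of 3 mocetinostat samples. Close to the start lie the matches of SYN1 (−223 bases), VGF, SYP and SYT5, whose levels rise. Those of CELF3 (−307), CHGA (383) and L1CAM (432) are close to it as well. L1CAM is high in both conditions, and CHGA and CELF3 stay below 1 CPM. INA (1880) and NPTX2 (−3477) have matches further away, and their levels rise too.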

How the data were processed

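Total RNA of TC28a2 cells was sequenced as single reads after ribosomal depletion of the libraries (3 samples per condition). Per the labels and the study's methods, the authors aligned reads to GRCh38 with STAR 2.6.1d and deposited raw counts per gene from featureCounts 1.6.4. DESeq2 1.20.0 was used upstream for their own comparison, which was not used here. The library kit was an early access product, and the strand setting is not given in the sources used here. The study describes the samples as coming from independent experiments.

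From the deposited counts, genes were filtered with filterByExpr (minimum count 10), scaled by TMM and tested with edgeR 4.0.16 (glmQLFit and glmQLFTest, R 4.3.3), treatment as the only term, with Benjamini-Hochberg adjustment over all 13966 genes. The biological coefficient of variation was 9.30%. A chi-square test of the counts found that replicates differed by more than sampling noise. The edgeR and DESeq2 fits were tested on simulated counts. Counting intervals and floors cover counting error only. An exact permutation test of 3 against 3 samples cannot go below 0.1 and was not used. Positions, exon lengths and overlaps are from GENCODE 44, matched by identifier for 99.46% of genes, and promoter windows from RefSeq (GRCh38.p14). The motif search read both strands of hg38 within 5 kb of each gene start.

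Counts in every sample were given for all members. From the other lists, the text names at most the 4 called genes with the largest changes, plus REST, RCOR1, RCOR2, KDM1A, HDAC1, HDAC2 and the paralogs set beside members; the other called genes of short lists and the chondrocyte markers were named after their values were seen. The members, lists and tests were chosen with earlier results of these data known. Alternatives were DESeq2 1.42.0, other scalings and filters, glmTreat, a replicate block, thinning and leaving out each sample.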

Additional observations from a re-analysis of the deposited data

How the results depend on the processing

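The count of members called upregulated was 38 and stayed between 31 and 42 under the other scalings, DESeq2, the test beyond the fold threshold, thinning and no filter, at 37 to 41 with any sample left out, and at 38 with the replicate block. It was 17 when each sample had to hold 10 or more counts and 24 with a mean of at least 10 CPM over all samples (chosen after seeing the data), since fewer members are then counted; a member can pass that mean through its mocetinostat level alone. No member was called downregulated under any of these. The replicate block changed no member's call. Same-numbered samples showed no shared deviation (correlations 0.0078, 0.0116 and −0.0162), which does not settle whether they were paired by experiment.

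Scaling to GAPDH moved the median log2 fold change of all genes to 0.53 and leaving out the filter moved it to −0.25. Upregulated genes over the whole table were 2827, but 4425 scaled to GAPDH and 1620 under the same stricter filter. Downregulated genes were 1142, but 284 scaled to GAPDH, 2120 without a filter, 704 under the stricter filter and 465 in the test beyond the fold threshold. Leaving out a sample gave 2842 to 3216 and 1173 to 1266. The sign changed for DLG4 (0.12 scaled to GAPDH) and, without a filter, for SV2A (−0.16), HOMER1 (−0.01) and L1CAM (−0.04); with a sample left out SV2A ranged from −0.11 to 0.22. Scaled to GAPDH, RAB3B (1.30), UCHL1 (1.23) and BEX1 (1.47) would be called.

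Members silent in DMSO numbered 13, but 3 at 0 counts, 22 below 10 counts and 27 after thinning, and 13 to 16 with a sample left out. Of them 7 were detected with mocetinostat, but 1, 12 and 17 under those definitions. The number was 12 when 1 mocetinostat sample sufficed and 4 at 10 or more counts in each. With a sample left out it was 7 to 11, the highest without mocetinostat replicate 2. Shares of protein-coding genes under these alternatives were not computed. Over the other lists, calls read off after seeing the data were 31 upregulated under the stricter filter and 57 to 59 with a sample left out; 3 were downregulated without a filter and 0 to 1 with a sample left out. Leaving out DMSO replicate 1 or 3 moved the fitted changes of SYT1, RIMS1, CHGB, SCG3, NEFL, NEFM and GAP43 by over 1.5 times without ending a call. Depth limits the members near 0 counts: the mocetinostat libraries are the shallower ones, and a member absent there may lie below their limit.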
